A study of Mus musculus with 12 samples.

Results

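The response of a mouse to the occlusion was taken here as the level of a gene in the ipsilateral hemisphere, on the side of the blocked artery, minus its level in the contralateral one. These responses were compared between 3 mice labelled KO (295, 298 and 300) and 3 mice labelled WT (296, 297 and 474), which used all 12 libraries of the series. RNA came from ACSA-2+ cells, sorted by an antigen that astrocytes carry at their surface. Brains were taken 24 h after transient middle cerebral artery occlusion (tMCAO), a stroke model that closes and later reopens the main artery on one side. All 6 animals were C57BL/6 mice of postnatal day 90 to 120 that carried Gfap-CreERT2+/- and floxed alleles. CreERT2 is a recombinase that acts once tamoxifen is given, here in cells that express Gfap. The mice labelled KO received tamoxifen and those labelled WT received corn oil, so effects of tamoxifen and of any deletion cannot be told apart. The groups were WT contralateral, WT ipsilateral, KO contralateral and KO ipsilateral, with 3 libraries in each and both libraries of a mouse paired. KO and WT are used below as labels only: no value given here shows that a deletion took place, and every difference is one between mice given tamoxifen and mice given corn oil.

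Astrocytes respond to ischaemia by leaving their resting programme, which includes glutamate uptake, glycogen storage and potassium buffering at endfeet on vessels, and by raising intermediate filament, matrix and immune genes. Wnt ligands of astrocytes, Wnt7a and Wnt7b among them, act through frizzled receptors and beta-catenin on neighbouring cells, including brain endothelium, where Axin2 and Lef1 are common readouts. Notch signalling, read out by Hes5, keeps astrocytes and their precursors in a glial state. Interferon and NF-kB genes mark the inflammatory side of the response.

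Levels are in CPM, read counts scaled by TMM to a common library size, and a response is a difference of log2 CPM. Total counts were 11187723 to 15780600 per library, and 15571 of 48709 genes passed the filter on low counts. Some libraries stood apart in ways the labels do not give. Mouse 296 was male by its reads, with 4 and 8 counts of Xist and 2733 and 2917 over 4 genes of the Y chromosome, against 9140 to 29592 and 0 to 8 in the other 10 libraries. In the KO ipsilateral library of mouse 300, microglial markers were lower than in its contralateral library while markers of oligodendrocytes and neurons were higher, as described below with the values without this mouse. The share of mitochondrial genes was highest in KO mice 298 and 300 on the ipsilateral side, at 1.68% and 1.83% of counts, and began at 0.923% elsewhere. Whether counting used strand is not given in the sources used here, so reads of Wnt7b, Hes5, Gfap, Axin2, Ptx3, Tagln, Timp4, Pfkm and other named genes that overlap a gene on the opposite strand cannot be told apart from reads of that gene.

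No single gene passed the test of the genotype difference. In edgeR's quasi-likelihood test with a term for each mouse, 0 of 15571 genes (0%) had an adjusted p below 0.05, the lowest being 0.324, and 1553 (9.97%) had an unadjusted p below 0.05. Of these, 1092 (7.01%) had the higher response in KO mice and 461 (2.96%) the lower one. On deposited TPM this split turned, with 426 higher and 1140 lower of 1566 genes at an unadjusted p below 0.05. The median difference of all genes was 0.05 on the log2 scale from counts and -0.16 from TPM, a shift of -0.20. List medians on TPM are to be read against that shift. DESeq2 with the same terms called 93 genes, 85 higher and 8 lower, and gave no adjusted p for 9962 genes. Limma on the 6 per-mouse differences called 0, with 1595 at an unadjusted p below 0.05. The 3 KO responses lay wholly above the 3 WT responses for 1662 genes (10.7%) and wholly below them for 964 (6.19%). Leaving out mouse 300 left 942 genes at an unadjusted p below 0.05, 513 higher and 429 lower. Leaving out mouse 474 left 947 and leaving out mouse 297 gave 2372.

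The replicates limited what could be seen. The median 95% interval of a difference reached 0.54 to either side on the log2 scale, and for 9527 genes (61.2%) the whole interval lay within 1 log2 unit of 0. For the other 6044 genes a difference of 2-fold or more was within the interval.

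Both genotypes responded to the occlusion, and KO mice had fewer genes past the test. In WT mice 4641 genes passed (29.8%), 2289 higher ipsilaterally (14.7%) and 2352 lower (15.1%). In KO mice 2498 genes passed (16%), 1704 higher (10.9%) and 794 lower (5.1%). On TPM the KO split was 998 higher and 1353 lower. The genes called in both, 1963, were 42.3% of the WT calls and 78.6% of the KO calls. Of these, 1290 rose in both, 671 fell in both and 2 went opposite ways. Genes called in WT mice alone numbered 2678, and 92.8% of them had the same sign in KO mice. A call in 1 genotype alone does not show a difference between genotypes, and 795 of the 2678 (29.7%) had an unadjusted p below 0.05 for the difference itself. The KO count rested on each mouse: it was 130 without mouse 295, 340 without mouse 300 and 1619 without mouse 298. The WT count was 2629 without mouse 474 and 2846 without mouse 297. Across genes the mean responses of the 2 genotypes correlated at Pearson's r = 0.80 (Spearman 0.75, 15571 genes, which are not independent). Responses of 2 mice correlated at 0.43 to 0.74 between genotypes (9 pairs), 0.60 to 0.69 within KO and 0.61 to 0.64 within WT. The SD of a mouse's response over genes was 0.67, 0.95 and 0.86 in WT mice 296, 297 and 474 and 0.69, 0.62 and 0.92 in KO mice 295, 298 and 300. The genotypes overlapped in this overall size (two-sided exact permutation p = 0.6, with 0.1 the smallest possible).

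**Figure D1:**
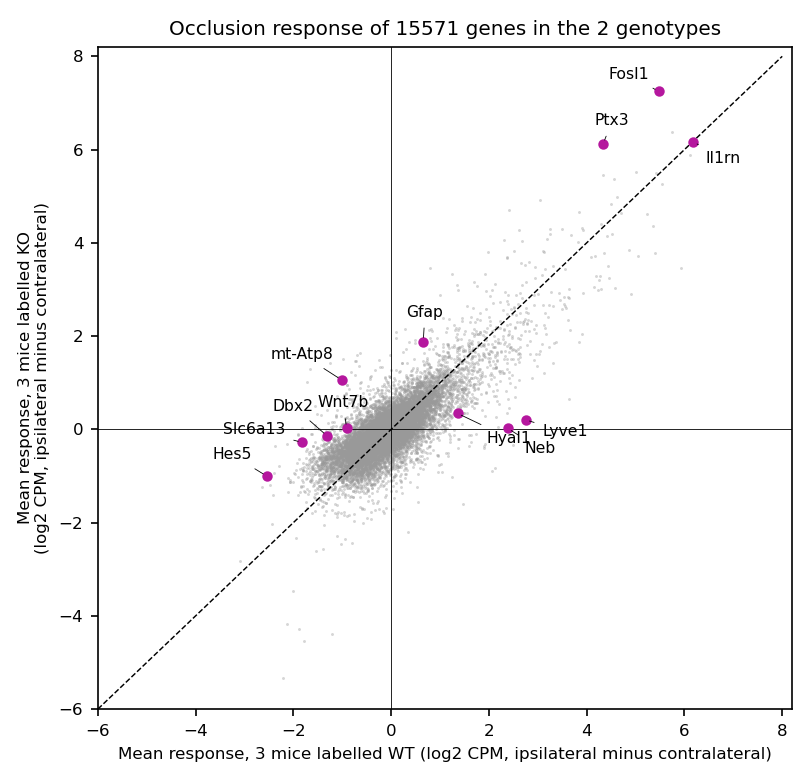
Mean response of 15571 genes in 3 KO mice (vertical, log2 CPM, ipsilateral minus contralateral) against that in 3 WT mice (horizontal), 1 point per gene, with named genes in purple and the dashed line marking equal responses. Wnt7b, Dbx2 and Slc6a13 lie near 0 on the KO axis and below 0 on the WT axis, Lyve1 and Neb near 0 on the KO axis and above 2 on the WT axis, and Il1rn lies near the line.

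Among Wnt ligands, Wnt7b (chr15:85535437-85582473, minus strand, GENCODE vM21 on GRCm38) fell after the occlusion in WT mice and did not pass the test in KO mice. Its level went from 93.2 to 47.0 CPM in mouse 296, 91.4 to 56.8 in 297 and 151 to 72.5 in 474 among WT mice. In KO mice it went from 167 to 164 CPM in mouse 295, 154 to 161 in 298 and 157 to 159 in 300. The 3 KO libraries of each side lay above all WT libraries of that side, and the responses did not overlap. The mean response was -0.91 ± 0.20 in WT mice (SD, n = 3; adjusted p = 0.00108 in edgeR) and 0.02 ± 0.05 in KO mice (adjusted p = 0.897). The genotype difference was 0.94 ± 0.15 (SE; 95% interval 0.59 to 1.28), with an unadjusted edgeR p of 0.00018 and an adjusted p of 0.324. Wnt7b was among the genes that DESeq2 called.

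Wnt7a, the paralogue of Wnt7b, went from 11.2 to 8.19 CPM in mouse 296, 35.2 to 14.1 in 297 and 88.7 to 23.1 in 474 in WT mice, and from 96.3 to 58.2 CPM in mouse 295, 87.4 to 76.1 in 298 and 80.6 to 56.1 in 300 in KO mice. The responses overlapped, since the WT mice ran from -0.45 to -1.93. Its difference was 0.82 ± 0.34 (SE; edgeR adjusted p = 0.484), or 0.44 without mouse 474. Porcn, which lipidates Wnt ligands for secretion, fell in both genotypes, by 1.0 in WT and 0.55 in KO mice on the log2 scale, and its difference was 0.44. Wnt6 was at or below 4.34 CPM in all libraries, with a difference of 1.48 ± 0.53 (SE). Of the 14 ligand and secretion genes tested, the KO responses lay 3 above and 1 below the WT ones with no overlap, against 10.7% and 6.19% of all genes. In WT mice 8 members fell and in KO mice 2, against 15.1% and 5.1% of all genes. The median difference was 0.23. It was 0.05 without mouse 297, 0.51 without 296, 0.35 without 295 and 0.05 on TPM.

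Axin2, the feedback inhibitor that beta-catenin induces, fell in both genotypes. It went from 55.8 to 26.7 CPM in mouse 296, 60.5 to 23 in 297 and 63.6 to 33.6 in 474 in WT mice and from 75.0 to 49.6 CPM in mouse 295, 71.2 to 46.1 in 298 and 71.6 to 40.8 in 300 in KO mice. The responses did not overlap, at -1.12 ± 0.24 and -0.68 ± 0.12 (SD, n = 3 each), and the difference was 0.45 ± 0.17 (SE; edgeR adjusted p = 0.462). Lef1, a transcription factor partner of beta-catenin, had a difference of 0.27 ± 0.23 (95% interval -0.25 to 0.80), and Ctnnb1, beta-catenin itself, one of -0.10 ± 0.17 (95% interval -0.49 to 0.29). With each mouse left out they ran from 0.10 to 0.50 and from -0.19 to -0.01. Both sets of responses overlapped between genotypes. The frizzled receptor gene Fzd2 went from 202 to 51.0 CPM in mouse 296, 131 to 40.8 in 297 and 188 to 38.8 in 474 in WT mice and from 176 to 77.5 CPM in mouse 295, 178 to 122 in 298 and 199 to 92.1 in 300 in KO mice. It fell in both genotypes without overlap of the responses (difference 1.04 ± 0.22 SE; edgeR adjusted p = 0.324), and DESeq2 called it. Among Wnt antagonists, Dkk3 had a response of -0.93 ± 0.13 in WT and -0.13 ± 0.08 in KO mice (SD, n = 3 each; difference 0.80). Dact3, an inhibitor of dishevelled, had a difference of 0.87.

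Counted by role, 5 of 16 Wnt/beta-catenin targets, 4 of 37 receptor and transduction genes and 4 of 14 antagonists had KO responses wholly above those of WT mice. Wholly below lay 0, 2 and 0. Over all genes 10.7% lay wholly above and 6.19% wholly below, so the receptor and transduction genes were near that background. The median differences were 0.22, 0.12 and 0.24, and on TPM all 3 turned to negative values of -0.00277, -0.10 and -0.03. The receptor median was 0.04 without mouse 300 and 0.06 without 297. The antagonist median was 0.04 without mouse 297, 0.13 without 298, 0.36 without 300, 0.46 without 295 and 0.54 without 296, and -0.01 with no filter beyond 1 count.

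Vegfa (chr17:46016993-46032369, minus strand), the vascular endothelial growth factor, went from 251 to 112 CPM in mouse 296, 288 to 142 in 297 and 500.0 to 171 in 474 in WT mice. In KO mice it went from 537 to 328 CPM in mouse 295, 492 to 413 in 298 and 445 to 327 in 300. All 6 mice had the lower level ipsilaterally, and on the log2 scale every KO mouse fell less than any WT mouse. The responses were -1.24 ± 0.27 and -0.47 ± 0.23 (SD, n = 3 each), of which the WT one passed (adjusted p = 0.00108) and the KO one did not (adjusted p = 0.0561, edgeR). The difference was 0.77 ± 0.20 (SE; 95% interval 0.32 to 1.23; edgeR adjusted p = 0.354), and DESeq2 called it. Vegfb had a difference of 0.68 (0.43 without mouse 300), and Nrp2, a co-receptor of VEGF and semaphorins that rose in both genotypes, one of -0.54. Of 29 vessel growth genes, 2 above and 1 below had no overlap, against 10.7% and 6.19% of all genes. Their median difference of 0.14 was -0.09 on TPM, 0.08 without mouse 300, 0.22 without 296 and 0.32 without 295.

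**Figure D2:**
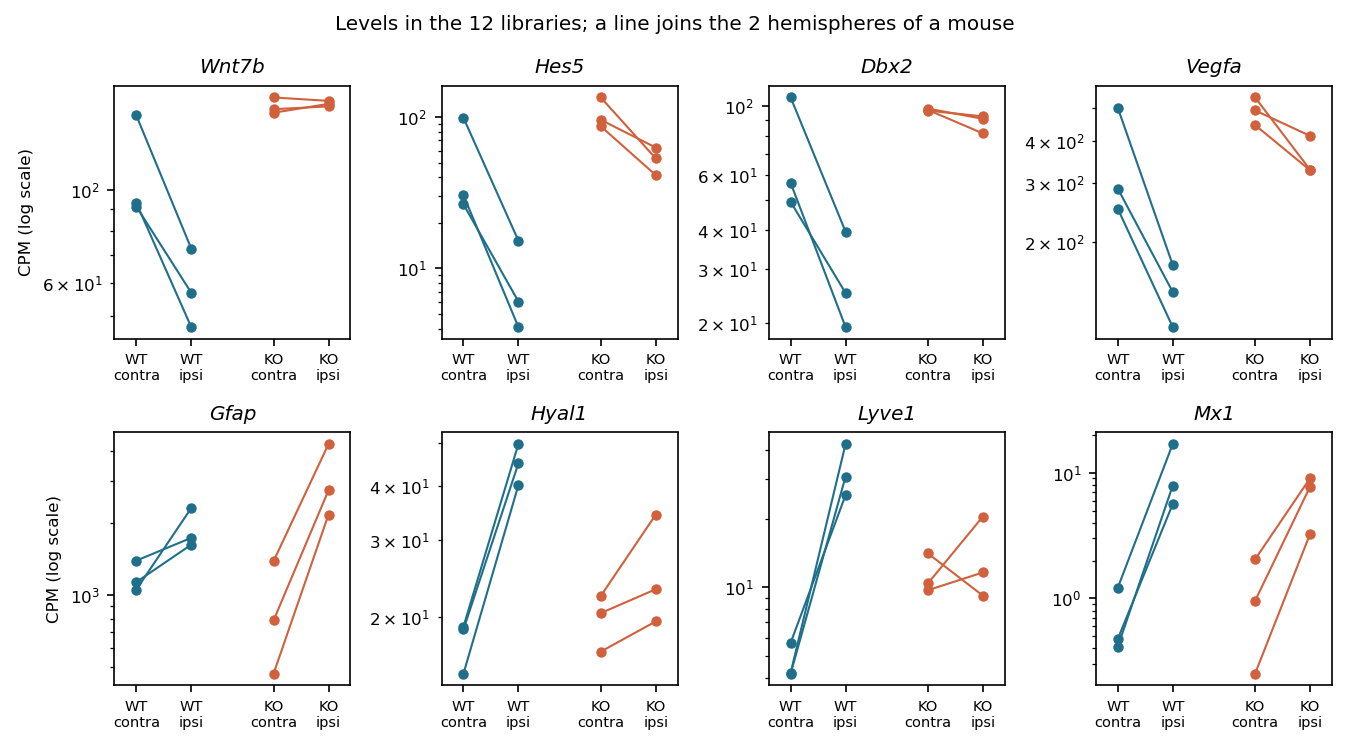
CPM on a log axis of 8 genes in the 12 libraries, with a line joining the hemispheres of a mouse (blue WT, orange KO; contra and ipsi are the contralateral and ipsilateral sides). Wnt7b stayed at 154 to 167 CPM in all KO libraries and dropped in each WT mouse, while Lyve1 rose in each WT mouse and overlapped between sides in KO mice.

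Hes5, Lfng and Nrarp of the Notch list fell in both genotypes, with the smaller mean falls on the log2 scale in KO mice. Hes5, a transcriptional repressor induced by Notch, went from 30.4 to 4.10 CPM in mouse 296, 26.5 to 6.04 in 297 and 98.8 to 15.2 in 474 in WT mice and from 135 to 53.3 CPM in mouse 295, 95.9 to 62.9 in 298 and 86.9 to 41.4 in 300 in KO mice. The KO ipsilateral libraries held more Hes5 than 2 of the 3 WT contralateral ones. Responses were -2.55 ± 0.39 in WT and -1.0 ± 0.37 in KO mice (SD, n = 3 each), both past the test (adjusted p = 0.000614 and 0.0116, edgeR). The difference was 1.57 ± 0.25 (SE; 95% interval 1.0 to 2.14; unadjusted p = 0.000178, adjusted p = 0.324, edgeR). Lfng, a glycosyltransferase that modifies Notch, had responses of -1.34 ± 0.23 and -0.59 ± 0.24, and Nrarp, a feedback inhibitor of Notch, of -1.50 ± 0.24 and -0.62 ± 0.40 (SD, n = 3 each). Their differences were 0.75 ± 0.19 and 0.89 ± 0.22 (SE), without overlap. DESeq2 called all 3. Hes5, Lfng and Nrarp are shown with their promoters because they had the smallest p of the Notch list. The promoters below are RefSeq sequences of the GRCm38.p6 build, 250 bases before to 50 after the start. They lie at chr4:154960673-154960972, chr5:140607091-140607390 and chr2:25180508-25180807, all on the plus strand.
Hes5: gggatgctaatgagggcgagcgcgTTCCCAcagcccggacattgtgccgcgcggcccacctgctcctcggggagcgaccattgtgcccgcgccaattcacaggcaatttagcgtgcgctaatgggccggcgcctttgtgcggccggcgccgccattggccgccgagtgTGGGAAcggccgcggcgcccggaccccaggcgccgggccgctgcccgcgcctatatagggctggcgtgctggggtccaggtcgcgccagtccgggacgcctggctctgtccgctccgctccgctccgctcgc
Lfng: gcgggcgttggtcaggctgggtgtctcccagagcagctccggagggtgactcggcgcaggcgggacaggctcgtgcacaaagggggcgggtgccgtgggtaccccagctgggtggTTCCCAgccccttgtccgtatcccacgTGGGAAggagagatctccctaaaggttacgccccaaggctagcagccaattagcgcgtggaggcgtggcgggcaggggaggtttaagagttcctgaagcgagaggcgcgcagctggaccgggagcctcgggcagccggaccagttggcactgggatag
Nrarp: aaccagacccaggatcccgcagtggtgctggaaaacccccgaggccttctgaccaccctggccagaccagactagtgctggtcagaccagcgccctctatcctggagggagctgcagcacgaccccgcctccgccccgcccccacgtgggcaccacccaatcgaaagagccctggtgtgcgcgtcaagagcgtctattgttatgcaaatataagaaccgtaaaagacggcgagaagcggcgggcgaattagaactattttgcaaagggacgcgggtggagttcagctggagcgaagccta
Capitals mark the letters TGGGAA on either strand (TTCCCA on the other), the core of the motif of RBPJ, the DNA-binding partner of Notch. The Hes5 window held 2 matches, starting at bases 25 and 169, the Lfng window 2, at bases 116 and 143, and the Nrarp window 0. Of 32851 mouse promoters of 300 bases, 25.6% held the letters.

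The Notch list as a whole had 20 genes tested, of which 11 fell in WT mice and 6 in KO mice, and 1 rose in each. Of all genes 15.1% fell in WT and 5.1% in KO mice. KO responses lay wholly above WT ones for 8 and wholly below for 0, against 10.7% and 6.19% of all genes. The list's median difference was 0.33 with all mice, 0.33 without mouse 300 and 0.10 on TPM. The per-mouse medians were -0.36, -0.70 and -0.41 in WT mice 296, 297 and 474 and -0.17, -0.14 and -0.32 in KO mice 295, 298 and 300, which did not overlap. The receptors Notch1 and Notch2 and the ligand Dll1 differed by -0.09, -0.02 and -0.00, and Rbpj by -0.42.

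All 30 genes of the resting astrocyte list fell in WT mice and 12 in KO mice, against 15.1% and 5.1% of all genes. The difference was above 0 for 30 of 30, as it was for 8632 of all 15571 genes. KO responses lay wholly above WT ones for 18 and wholly below for 0, against 10.7% and 6.19% of all genes. The mean level of the list was 8.76, 8.84 and 9.27 log2 CPM in the contralateral libraries of WT mice 296, 297 and 474, and 7.89, 7.83 and 7.96 in the ipsilateral ones. In KO mice 295, 298 and 300 it was 9.26, 9.39 and 9.31 contralaterally and 8.57, 9.16 and 8.85 ipsilaterally. The median difference of the members was 0.62, with 0.61 without mouse 300 and 0.39 to 0.72 over the 16 alternatives. In bulk RNA, fewer astrocytes among the selected cells and less of these RNAs per astrocyte cannot be told apart.

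Among its members, Cbs, which makes cystathionine from homocysteine, went from 415 to 159 CPM in mouse 296, 322 to 132 in 297 and 382 to 134 in 474 in WT mice. In KO mice it went from 373 to 239 CPM in mouse 295, 432 to 336 in 298 and 413 to 329 in 300. It fell in both genotypes, and its difference was 0.95 ± 0.16 (SE; 95% interval 0.58 to 1.32; edgeR adjusted p = 0.324). Aldh1l1, the folate enzyme used as a pan-astrocyte marker, had responses of -0.69 ± 0.16 in WT and 0.11 ± 0.21 in KO mice (SD, n = 3 each), of which the WT one passed (edgeR adjusted p = 0.00492). Ppp1r3c, which targets a phosphatase to glycogen, was lower ipsilaterally in 3 of 3 WT mice and higher in 3 of 3 KO mice. Its level went from 148 to 93.3 CPM in mouse 296, 97.9 to 70.4 in 297 and 129.7 to 99.8 in 474, and from 123 to 139.5 CPM in mouse 295, 144 to 176 in 298 and 143 to 162 in 300 (difference 0.72 ± 0.14 SE). The growth factor receptor Fgfr3 fell in both genotypes, with a difference of 0.79, and the lipid carrier Apoe had one of 1.01. DESeq2 called 9 of the 30 resting genes, Cbs, Aldh1l1, Ppp1r3c and Fgfr3 among them, against 93 of all 15571 genes.

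At endfeet and gap junctions, 11 of 15 genes fell in WT mice and 5 in KO mice, against 15.1% and 5.1% of all genes. Aqp4, the water channel of endfeet, went from 244 to 189 CPM in mouse 296, 421 to 252 in 297 and 489 to 405 in 474 in WT mice and from 612 to 543 CPM in mouse 295, 672 to 776 in 298 and 643 to 524 in 300 in KO mice. The responses overlapped (difference 0.37 ± 0.21 SE; 95% interval -0.10 to 0.84; edgeR adjusted p = 0.578), with 0.24 without mouse 297 or 298. The connexin gene Gjb6 had a difference of 0.66 and Mlc1 one of 0.45, each without overlap. The list's median difference was 0.21, which turned to -0.00443 on TPM and was 0.33 without mouse 295.

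Of 22 glycolysis genes 10 fell in WT mice and 1 in KO mice, against 15.1% and 5.1% of all genes, and 2 rose in each. The KO responses were wholly above for 11 members and wholly below for 0, against 10.7% and 6.19% of all genes. The median difference was 0.34 (0.22 without mouse 300, 0.12 on TPM). Pfkm, a phosphofructokinase subunit, went from 384 to 173 CPM in mouse 296, 371 to 178 in 297 and 567 to 206 in 474 in WT mice and from 554 to 362 CPM in mouse 295, 589 to 531 in 298 and 570.1 to 500.3 in 300 in KO mice (difference 0.91 ± 0.20 SE). Aldoc, the astrocytic aldolase, differed by 1.08 ± 0.25 and Pygm, a glycogen phosphorylase, by 0.89 ± 0.24 (SE). Aldoc is also a member of the resting list. DESeq2 called Pfkm, Aldoc and Pygm. Nuclear genes of oxidative phosphorylation had a median difference of 0.31 that became 0.13 without mouse 300, 0.16 without 474 and 0.48 without 297, with 7 of 32 wholly above and 0 below. Cytosolic ribosomal protein genes rose in 31 of 32 cases in KO mice and in 16 in WT mice, against 10.9% and 14.7% of all genes. However, 0 of them were free of overlap, against 16.9% of all genes. Their median difference of 0.33 became 0.04 without mouse 300, 0.12 without 296, 0.54 without 297 and 0.56 without 298.

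**Figure D3:**
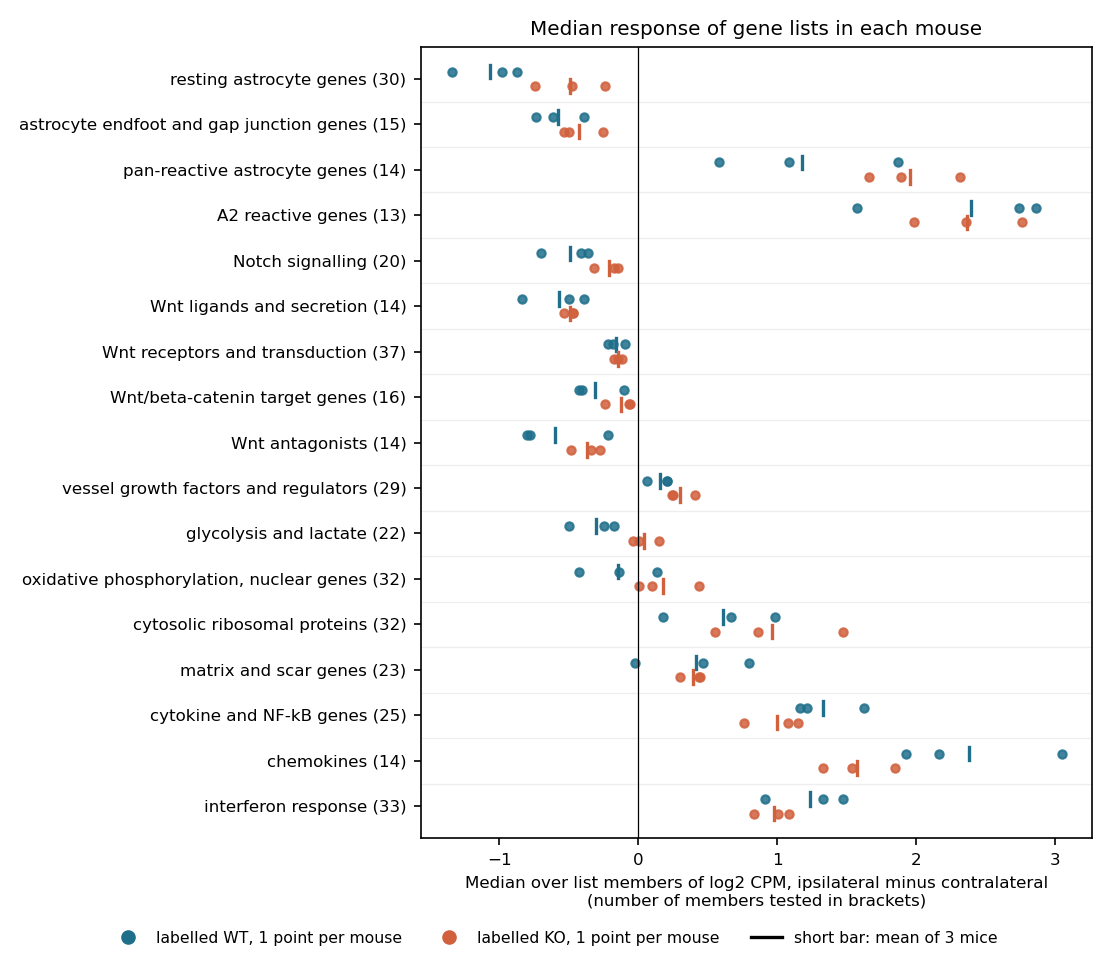
Median over the tested members of 17 gene lists of the response (log2 CPM, ipsilateral minus contralateral), 1 point per mouse (blue WT, orange KO), with a short bar at the mean of 3 mice. The genotypes did not overlap for resting astrocyte genes, at -0.87, -0.98 and -1.34 in WT and -0.74, -0.24 and -0.48 in KO mice, and overlapped for A2 reactive genes.

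The intermediate filament gene Gfap (chr11:102887336-102900912, minus strand) rose in both genotypes, with the larger values in KO mice. It went from 1136 to 1629 CPM in mouse 296, 1397 to 1739.6 in 297 and 1057 to 2317 in 474 in WT mice. In KO mice it went from 787 to 2752 CPM in mouse 295, 471 to 2177 in 298 and 1391 to 4296 in 300. KO mice 295 and 298 had the lowest contralateral levels of the 6 mice, and the KO ipsilateral libraries of mice 295 and 300 were above all WT ones. Responses were 0.66 ± 0.42 in WT and 1.88 ± 0.30 in KO mice (SD, n = 3 each; edgeR adjusted p = 0.0337 and 0.00273), without overlap. The difference was 1.23 ± 0.27 (SE; 95% interval 0.60 to 1.85; unadjusted p = 0.00167, adjusted p = 0.324, edgeR), and DESeq2 called it. Gfap is also the gene whose promoter drives the Cre in every mouse.

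Aspg, an asparaginase of reactive astrocytes, went from 28.7 to 47.7 CPM in mouse 296, 38.8 to 59.0 in 297 and 24.3 to 56.0 in 474 in WT mice and from 15.8 to 62.6 CPM in mouse 295, 7.35 to 47.4 in 298 and 26.8 to 87.6 in 300 in KO mice. Its difference was 1.26 ± 0.27 (SE), without overlap. Lcn2, the secreted lipocalin of reactive astrocytes, rose in both genotypes, and its responses overlapped, the low WT response being that of mouse 296 with 312 CPM contralaterally (difference 1.37 ± 0.77 SE; 95% interval -0.43 to 3.17; 0.45 without mouse 296). Ptx3, a pentraxin, went from 2.96 to 29.9 CPM in mouse 296, 1.35 to 27.9 in 297 and 0.413 to 25.8 in 474 in WT mice and from 0.655 to 39.6 CPM in mouse 295, 0.662 to 66.9 in 298 and 0.882 to 86.5 in 300 in KO mice, with a difference of 2.18 ± 0.58 (SE). Tgm1, a transglutaminase of the A2 list, had one of 1.91 ± 0.59 (SE). The contralateral counts of Ptx3 summed to 56 in WT and 31 in KO mice, so its fold rests on few reads. The pan-reactive, A1 and A2 lists are published sets of genes of reactive astrocytes, and they share no single function. Of 14 pan-reactive genes 11 rose in WT and 12 in KO mice, against 14.7% and 10.9% of all genes. KO responses lay wholly above for 2 and below for 1, against 10.7% and 6.19% of all genes. The median difference was 0.37, which was 0.20 without mouse 296 and 0.65 without 474. Of 13 A2 genes 12 and 11 rose, with a median difference of 0.03. It had no stable sign, at -0.27 without mouse 300, -0.25 without 296 and -0.20 on TPM but 0.25 without 474 and 0.32 without 298. No A1 gene of 12 was free of overlap, against 16.9% of all genes.

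Most genes of the interferon, cytokine and NF-kB, and chemokine lists rose in both genotypes, with the smaller median responses in KO mice. This did not hold for every immune list, as given below for antigen presentation and the IL-6 family. Of 33 interferon response genes 32 rose in WT and 26 in KO mice, against 14.7% and 10.9% of all genes. A difference below 0 was found for 28, as it was for 6939 of all 15571 genes. KO responses lay wholly below WT ones for 4 and wholly above for 0, against 6.19% and 10.7% of all genes, so that most members overlapped. The per-mouse medians overlapped between genotypes. They were 1.48, 0.91 and 1.33 in WT mice 296, 297 and 474. In KO mice 295, 298 and 300 they were 1.09, 1.01 and 0.84. The median difference was -0.36, and -0.47 on TPM. It was -0.12 without WT mouse 296 and -0.56 without WT mouse 297. Mx1, an antiviral GTPase, went from 1.22 to 16.9 CPM in mouse 296, 0.476 to 5.64 in 297 and 0.413 to 7.90 in 474 in WT mice and from 2.05 to 9.04 CPM in mouse 295, 0.956 to 7.74 in 298 and 0.252 to 3.25 in 300 in KO mice (difference -1.07 ± 0.47 SE; edgeR adjusted p = 0.5; -0.60 without mouse 295). Tap1, a peptide transporter for antigen presentation, differed by -0.46 ± 0.18 (SE), unlike most of its own list. Of 17 antigen presentation genes 11 had a difference above 0 and 6 below, with a median of 0.01. Among them 7 rose in WT and 6 in KO mice, against 14.7% and 10.9% of all genes. KO responses lay wholly above for 1 of them and wholly below for 1, against 10.7% and 6.19% of all genes.

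Tnfaip3, which restrains NF-kB, went from 51.7 to 178 CPM in mouse 296, 27.6 to 161 in 297 and 19.1 to 85.3 in 474 in WT mice. In KO mice it went from 66.7 to 132 CPM in mouse 295, 44.3 to 118 in 298 and 38.7 to 42.5 in 300, the smallest step being that of mouse 300. It rose in both genotypes without overlap of the responses, with a difference of -1.30 ± 0.34 (SE) that was -1.01 without mouse 300. DESeq2 called it. Nfkbiz, a nuclear NF-kB regulator, had a difference of -0.72 with overlap. Of 25 cytokine and NF-kB genes 21 rose in WT and 20 in KO mice, against 14.7% and 10.9% of all genes. Of them 1 lay wholly below and 0 wholly above, against 6.19% and 10.7% of all genes (median difference -0.15). Of 14 chemokines 11 rose in WT and 8 in KO mice, against 14.7% and 10.9% of all genes. The median difference was -0.71, with 11 members below 0 and 3 above. KO responses lay wholly below for 1 chemokine and wholly above for 1, against 6.19% and 10.7% of all genes, so most members overlapped. Ccl2, which attracts monocytes, differed by -0.72 ± 0.37 and Cxcl2, which attracts neutrophils, by -1.09 ± 0.36 (SE), both with overlap. Ccl2 was at -0.33 without mouse 295. Cxcl14, unlike these, fell in WT mice, with responses of -1.34 ± 0.37 and -0.32 ± 0.23 (SD, n = 3 each) and a difference of 1.01.

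In the list of 19 IL-6 family and STAT3 genes, 13 rose in WT and 11 in KO mice, against 14.7% and 10.9% of all genes. Their median response was 0.966 in WT and 1.004 in KO mice, with 11 differences above 0 and 8 below. Receptors of the IL-6 family did not share a direction. Cntfr, the receptor of ciliary neurotrophic factor, fell in both genotypes, from 229 to 88.9 CPM in mouse 296, 219 to 83.4 in 297 and 349.5 to 86.5 in 474 in WT mice, with a difference of 0.95 ± 0.22 (SE). Il11ra1 had a difference of 0.68, although it overlaps other genes in the annotation, and the shared subunit Il6st one of -0.42.

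The other genes with the smallest p for a higher KO response follow. Dbx2 (chr15:95623563-95655960, minus strand), a homeobox transcription factor, went from 56.6 to 19.5 CPM in mouse 296, 49.2 to 25.0 in 297 and 107 to 39.5 in 474 in WT mice and from 97.3 to 81.8 CPM in mouse 295, 96.8 to 92.7 in 298 and 98.2 to 91.1 in 300 in KO mice. It fell in WT mice (edgeR adjusted p = 0.000847), its response in KO mice was -0.14 ± 0.10 (SD, n = 3), and the difference was 1.18 ± 0.18 (SE; 95% interval 0.78 to 1.58; edgeR adjusted p = 0.324). Slc6a13, a GABA transporter that is also on the fibroblast list, went from 15.3 to 4.41 CPM in mouse 296, 9.21 to 2.34 in 297 and 8.18 to 2.26 in 474 in WT mice and from 11.7 to 10.2 CPM in mouse 295, 7.87 to 6.82 in 298 and 7.37 to 5.35 in 300 in KO mice (difference 1.59 ± 0.25 SE). Fxyd1, which modulates the sodium pump, and Fbxo2, an F-box protein that binds glycoproteins, fell in WT mice and differed by 0.88 and 1.08. Sec14l2, Apc2 and Sept5 also fell in WT mice, Apc2 in KO mice too, and differed by 0.99, 0.82 and 0.83. Plekhf1 was lower ipsilaterally in 3 of 3 WT mice and higher in 3 of 3 KO mice, with from 56.9 to 38.0 CPM in mouse 296, 40.2 to 29.9 in 297 and 40.1 to 21.4 in 474, and from 14.6 to 18.4 CPM in mouse 295, 15.4 to 20.3 in 298 and 22.7 to 31.9 in 300. Its contralateral level was thus lower in all KO mice than in any WT mouse.

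mt-Atp8, a mitochondrial subunit of ATP synthase, fell in WT mice and rose in KO mice. It went from 107 to 54.8 CPM in mouse 296, 91.3 to 39.3 in 297 and 97.6 to 53.6 in 474 in WT mice and from 82.9 to 122 CPM in mouse 295, 27.8 to 48.1 in 298 and 76.3 to 272 in 300 in KO mice, a difference of 2.08 ± 0.32 (SE), 1.63 without mouse 300. Its reading frame overlaps mt-Atp6 on the same strand, so its count is uncertain. Ip6k3, an inositol hexakisphosphate kinase, was the other gene that passed in both genotypes with opposite signs, at -0.58 and 0.65.

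**Figure D4:**
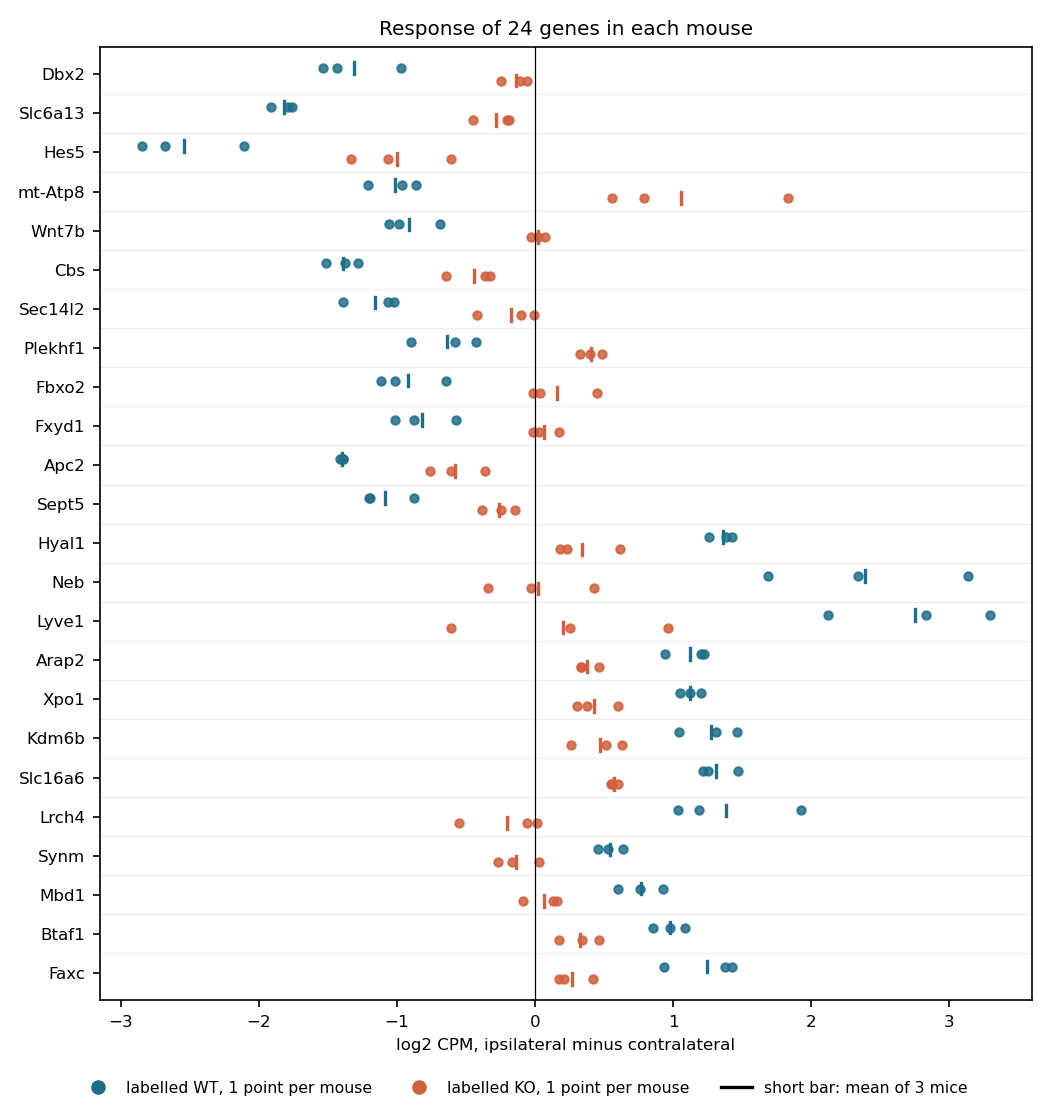
Response (log2 CPM, ipsilateral minus contralateral) in each mouse of the 12 genes with the smallest p for a higher and the 12 for a lower KO response, 1 point per mouse (blue WT, orange KO) with a short bar at the mean. These genes were picked for having no overlap between genotypes, and 0 of the 24 passed the adjusted edgeR test.

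Lower responses in KO mice were led by Hyal1 (chr9:107576927-107581710, plus strand), a lysosomal hyaluronidase. It went from 18.7 to 45.0 CPM in mouse 296, 19.0 to 49.8 in 297 and 14.8 to 40.1 in 474 in WT mice and from 20.4 to 23.1 CPM in mouse 295, 16.6 to 19.5 in 298 and 22.3 to 34.3 in 300 in KO mice. It rose in WT mice (edgeR adjusted p = 0.000847), and the difference was -1.02 ± 0.18 (SE; 95% interval -1.44 to -0.60; edgeR adjusted p = 0.324). Hyal1 overlaps Nat6 and Hyal3 in the annotation, so reads may be shared. Lyve1, a hyaluronan receptor of lymphatic endothelium and perivascular macrophages, went from 4.17 to 30.6 CPM in mouse 296, 4.21 to 42.6 in 297 and 5.70 to 25.4 in 474 in WT mice and from 14.1 to 9.18 CPM in mouse 295, 9.70 to 11.6 in 298 and 10.4 to 20.4 in 300 in KO mice. All KO contralateral libraries held more of it than any WT one, and the difference was -2.57 ± 0.45 (SE). Neb, the giant muscle protein nebulin, was at or below 13.1 CPM in every library and rose in WT mice (difference -2.39 ± 0.44 SE).

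Other genes among the 12 with the smallest p for a lower KO response follow. Xpo1, the nuclear export receptor, and Arap2, a regulator of small GTPases, rose in both genotypes and differed by -0.70 ± 0.14 and -0.75 ± 0.15 (SE). Kdm6b, a histone H3 lysine demethylase, also rose in both, from 149.7 to 414 CPM in mouse 296, 80.1 to 199 in 297 and 70.2 to 145 in 474, and from 105 to 150.3 CPM in mouse 295, 94.2 to 113 in 298 and 104 to 161 in 300, with a difference of -0.81 ± 0.17 (SE). Slc16a6, a monocarboxylate transporter, rose in both and differed by -0.75. Synm, an intermediate filament protein, Mbd1, which binds methylated DNA, Btaf1, a TBP-associated ATPase, Lrch4 and Faxc rose in WT mice and differed by -0.68, -0.70, -0.65, -1.61 and -0.98. DESeq2 called Arap2, Kdm6b, Synm and Tnfaip3 among its 8 genes with a lower KO response.

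Ion and acid-base transport genes were counted by role. Of 17 proton and bicarbonate transport genes 3 lay wholly above and 0 below, with a median difference of -0.01 that ran from -0.03 to 0.13 with each mouse left out. Of 17 carbonic anhydrases and monocarboxylate transporters 3 lay above and 0 below (median 0.39, or 0.25 without mouse 474), with Car8, a carbonic anhydrase relative without catalytic activity, at 0.74 and the membrane enzyme Car4 at 0.43. Of 23 sodium, chloride and calcium transport genes 5 lay above and 1 below (median 0.18, or 0.35 without mouse 295, 0.31 without 297 and 0.09 without 300). Over all genes the shares were 10.7% and 6.19%. Wnk2, a kinase that controls chloride cotransporters, fell in both genotypes and differed by 0.63 ± 0.19, and Atp1b2, the astrocytic beta subunit of the sodium pump, by 0.55 ± 0.22 (SE).

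Of 23 matrix and scar genes 6 lay wholly above and 1 below, against 10.7% and 6.19% of all genes, with a median difference of 0.23 (0.01 on TPM). The median turned to -0.05 without mouse 296 and was 0.14 without 295, 0.14 without 300, 0.35 without 298 and 0.45 without 474. Bcan and Cspg5, chondroitin sulphate proteoglycans of the brain, differed by 0.95 ± 0.28 and 0.96 ± 0.23, and Col1a1, a fibrillar collagen chain, by 1.12 ± 0.22 (SE), each without overlap. Gdf10, a TGF-beta family factor, went from 47.2 to 11.5 CPM in mouse 296, 33.7 to 4.91 in 297 and 38.3 to 6.70 in 474 in WT mice and from 36.1 to 13.9 CPM in mouse 295, 37.3 to 15.1 in 298 and 35.8 to 11.7 in 300 in KO mice, a fall in both (difference 1.0 ± 0.23 SE). The inhibitors Timp4 and Serpine2 differed by 0.81 and 0.47, and the heparin-binding factor Mdk by 0.66. Of 20 hypoxia genes 3 lay above and 2 below (median -0.03), near the 10.7% and 6.19% of all genes, with Hif1a at -0.37 and the oxidoreductase Ero1l, which rose in both genotypes, at -0.71. KO responses lay wholly above for 3 of 22 ATF4 genes, 4 of 21 Nrf2 and antioxidant genes and 2 of 26 chaperone genes, and wholly below for 0, 0 and 1. Mthfd2, a mitochondrial folate enzyme under ATF4, rose in both genotypes with a difference of 1.08 ± 0.32, and the serine synthesis gene Psph had one of 0.47. Gstm1, a glutathione transferase, had a difference of 0.84, and the chaperone gene Hsp90aa1 one of -0.47.

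Markers of other cell types were present in the selected cells and moved with side and genotype. The 12 oligodendrocyte markers summed to 19485 to 20887 CPM in WT contralateral libraries, 16316 to 24514 in WT ipsilateral, 6321 to 9041 in KO contralateral and 11179 to 22822 in KO ipsilateral ones. The 30 resting astrocyte genes summed to 29018 to 38649, 15749 to 18087, 39639 to 45073 and 25489 to 38858 CPM in the same order. Mbp, a myelin protein, went from 4961 to 2717 CPM in mouse 296, 3657 to 2779.8 in 297 and 4826 to 2514 in 474 in WT mice and from 1655 to 3032 CPM in mouse 295, 1448 to 1891 in 298 and 1371 to 12264 in 300 in KO mice. Its difference was 2.17 ± 0.68 (SE), 1.31 without mouse 300, and that of Mobp 1.48 ± 0.57, 0.74 without this mouse. Of the 12 oligodendrocyte markers 2 lay wholly above and 0 below, against 10.7% and 6.19% of all genes. Their median difference of 0.41 was 0.17 without mouse 300, 0.20 without 474 and 0.71 without 295. The 9 choroid plexus markers summed to 3961 to 7522, 2595 to 5989, 735 to 2032 and 457 to 1200.2 CPM in the same order, so all KO libraries held less than any WT library, on either side. Their responses overlapped between genotypes in 9 of 9 cases, where 16.9% of all genes did not overlap, with a median difference of -0.03.

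The 14 microglial markers summed to 520.3 to 642 CPM in WT contralateral, 1037 to 1589 in WT ipsilateral, 893 to 1526 in KO contralateral and 367 to 2851 in KO ipsilateral libraries, of which the lowest was that of mouse 300. Their median response was 0.54, 1.19 and 1.09 in WT and 0.84, 0.92 and -1.42 in KO mice, so the difference of -0.69 became -0.16 without mouse 300 and -1.05 without 298. Cx3cr1, the microglial fractalkine receptor, went from 184 to 313 CPM in mouse 295, 128 to 253 in 298 and 119 to 27.0 in 300 among KO mice. Of 9 monocyte and macrophage markers tested, 3 lay wholly below, against 6.19% of all genes. They were Mrc1 at -1.23 ± 0.30, the scavenger receptor Cd163 at -1.13 ± 0.28 and F13a1 at -0.69 ± 0.20 (SE). The per-mouse medians of the list overlapped between genotypes. They were 0.43, 1.02 and 0.80 in WT mice 296, 297 and 474. In KO mice 295, 298 and 300 they were 0.01, 0.12 and 1.25, the highest being that of mouse 300. The 10 markers of this list summed to 71.4 to 82.3, 105 to 182, 126 to 317 and 149 to 295 CPM in the same order of groups. Lyve1 above is expressed by such cells, as background.

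Of the 12 pericyte and smooth muscle markers 5 lay wholly above, against 10.7% of all genes. All 12 had a difference above 0, as did 8632 of all 15571 genes, and 7 fell in WT mice, against 15.1% of all genes. Their sums were 1328 to 1527, 829.8 to 1117, 1480.4 to 1836 and 1296 to 1859.7 CPM in the same order of groups. Tagln, an actin-binding protein of smooth muscle, differed by 0.88 ± 0.19 and Vtn, vitronectin, by 0.69 ± 0.17 (SE). Neuronal markers summed to only 169 to 213, 134 to 163, 158 to 207 and 153 to 184 CPM, and 3 of 13 lay above, against 10.7% of all genes. Neutrophil markers overlapped between genotypes in 7 of 7 tested cases, where 16.9% of all genes did not overlap. No marker of these 13 lists that the tables hold was at 0 in every library. The part of these other cells in the differences above was not tested.

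**Figure D5:**
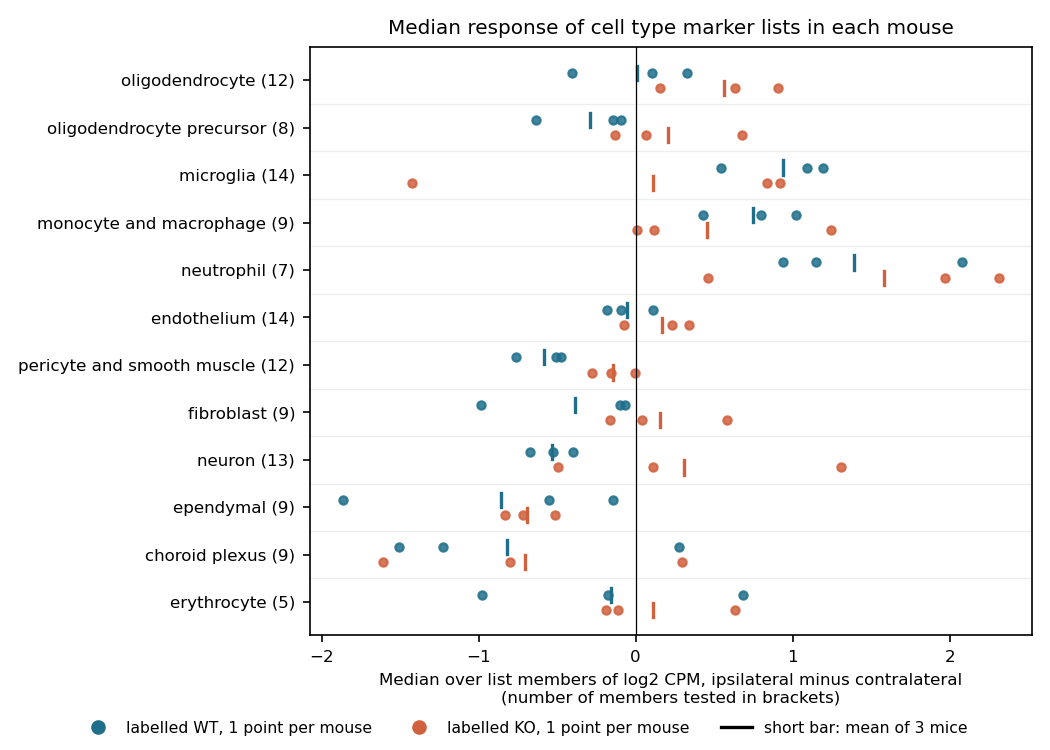
Median response over the tested members of 12 cell type marker lists (log2 CPM, ipsilateral minus contralateral), 1 point per mouse (blue WT, orange KO) with a short bar at the mean. Mouse 300 is the KO point at -1.42 for microglia, 0.91 for oligodendrocytes and 1.31 for neurons.

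The 6 genes with the largest response shared by both genotypes were near absent contralaterally. Il1rn, the interleukin-1 receptor antagonist, went from 0.261 to 18.7 CPM in mouse 296, 0.318 to 45.7 in 297 and 0.165 to 27.8 in 474 in WT mice and from 0.736 to 25.2 CPM in mouse 295, 0.147 to 31.4 in 298 and 0 to 18.9 in 300 in KO mice. Its difference was -0.37 ± 0.99 (95% interval -2.66 to 1.91), an interval that also holds a 2-fold difference in either direction. The endothelial selectins Selp and Sele differed by 1.15 ± 1.02 (95% interval -1.17 to 3.48) and -0.29 ± 0.60 (95% interval -1.65 to 1.07), and the cytokine Il11 by 0.76 ± 1.14 (95% interval -1.90 to 3.43). Selp became 3.91 without mouse 300 and 0.31 without 297, and Il1rn, Sele and Il11 changed sign under some alternatives. Fosl1, an AP-1 transcription factor, had 41 contralateral counts in WT mice, 35 of them in mouse 296, and 5 in KO mice, and its difference was 3.38 ± 1.25 (95% interval 0.48 to 6.28), or 1.52 without mouse 296. Klk9, a kallikrein protease, had 14 contralateral and 1060 ipsilateral counts in WT mice and 0 and 406 in KO mice. The interval of Fosl1 lay above 0, with an adjusted edgeR p of 0.463, and none is given here for Klk9. Those of Il1rn, Selp, Sele and Il11 are too wide to say that the genotypes responded alike.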

How the data were processed

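RNA of ACSA-2+ cells was measured in 12 libraries from 6 mice. The authors deposited, per library, whole-number expression values for 48709 genes, taken here as counts of reads per gene, beside TPM, scaled for length and summing alike in each library, and RPKM, used here only to check the unit. The genome build was mm10, per the submitters' processing notes. Neither aligner nor counter is named in the sources used here. Counts lay between 11187723 and 15780600 per library, which sets the precision, and 48349 gene IDs matched the annotation.

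Counts were fitted in R 4.3.3 with edgeR 4.0.16 (filterByExpr with a minimum count of 10, TMM scaling, robust quasi-likelihood). The design had 1 term per mouse and 1 response per genotype, leaving 4 residual degrees of freedom. The tested contrast was the KO response minus the WT response, with Benjamini-Hochberg adjustment over 15571 genes and calls at 0.05. The SE, an approximation, is the estimate over the root of its F. Per-mouse responses are differences of log2 CPM (prior count 2), with SD over 3 mice. The fit was also run on simulated counts that, unlike these data, held no mouse effect and no shared occlusion response. The outcome is not given here, and such counts cannot test the pairing by mouse. Pairing is by animal. Deviations from group means correlated between the hemispheres of mice 296, 297, 474, 295, 298 and 300 at 0.63, 0.02, 0.36, 0.29, 0.35 and 0.16, so the pairing of mouse 297 has little support in the values. Lists are described by counts and medians, with no test.

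Named were, per direction, the 12 genes with the smallest p among those averaging 2 log2 CPM or more with no overlap of the 3 against 3 mice (the rule took passing genes first, and there were 0), unnamed models aside. Added were Gfap, Aqp4, Lcn2, Wnt7a, Wnt7b, Axin2, Lef1, Ctnnb1 and Vegfa, from each list the 3 members lowest in p, genes called in both genotypes with opposite signs and the 6 largest shared responses. Notch1, Notch2, Dll1 and Rbpj were added for their roles. The members and lists were chosen with earlier results of these data known. A few genes picked by the rule are not reported here.

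The alternatives comprised DESeq2 1.42.0, limma 3.58.1 on per-mouse differences of log2 CPM (prior count 2 or 0.5) and of log2(TPM + 1) (genes reaching a TPM of 1 in 3 libraries), RLE and upper-quartile scaling, 2 other filters, no robust estimation, no mouse term, and each mouse left out. Followed under them, as chosen after seeing the data, were also the count at an unadjusted p below 0.05 and the list medians.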

Additional observations from a re-analysis of the deposited data

Results flagged for a closer look

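For 8 of the genes named, all 3 WT mice moved one way and all 3 KO mice the other. The named genes were mainly picked by smallest p of this difference in the same mice, which favours such cases. The difference between genotypes did not pass after adjustment in edgeR for any of these 8, so it is given as a value. WT mice were lower ipsilaterally and KO mice higher for 7 of them. These were mt-Atp8 (difference 2.08 on the log2 scale), which overlaps mt-Atp6, Plekhf1 (1.05), Ppp1r3c (0.72), Ip6k3 (1.23), the ATP synthase subunit gene Atp5o (0.66), the complex I subunit gene Ndufa8 (0.69) and the myelin gene Mbp (2.17). Without mouse 300 the values of Atp5o, Ndufa8 and Mbp were 0.45, 0.39 and 1.31. WT mice were higher ipsilaterally and KO mice lower for Cd163, a macrophage receptor (-1.13, or -0.89 without mouse 300). Of all 15571 genes tested, 164 were lower in all 3 WT mice and higher in all 3 KO mice, and 104 the reverse.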

How the results depend on the processing

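The genotype difference called 0 genes under every setting run except DESeq2, which called 93. Without the replicate block, that is with no mouse term, 2982 genes passed in WT mice, 979 in KO mice and 763 had an unadjusted p below 0.05 for the difference, against 4641, 2498 and 1553 with it. With each mouse left out in turn these 3 counts ran from 2629 to 4854, from 130 to 3628 and from 942 to 2372. The named genes were mainly picked by smallest p, and the alternatives reuse the same mice. Keeping a direction is therefore no independent support. Of 1552 values (97 named genes under 16 alternatives) 1545 kept their direction and 35 passed, all 35 under DESeq2. The exceptions are 3 genes with few contralateral counts. Il1rn was 0.21 in DESeq2, 0.43 with a prior count of 0.5 and -0.93 to 1.45 with a mouse left out, Sele -0.67 to 0.0834 with a mouse left out, and Il11 -0.18 on TPM and -1.14 to 1.72 with a mouse left out. On TPM 16 of 46 list medians turned negative, among them -0.00443 (endfoot), -0.0991 (Wnt receptors), -0.00277 (Wnt targets), -0.0282 (Wnt antagonists), -0.0914 (vessel growth) and -0.1995 (A2), where the median of all genes was -0.16. With a mouse left out the medians of A2, matrix, hypoxia and proton and bicarbonate transport genes changed sign, the last at -0.0268 to 0.135. The cause was not tested. Few mice and, for genes near 0 contralaterally, few counts limit the precision.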
